A study of Homo sapiens with 6 samples.

Results

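The 3 genes studied here have a place in the biology of the ovary and its tumours. The levels of PAX8, PAX8-AS1 and ESR1 were followed across ES2 cells treated either with a control antisense oligonucleotide (the control ASO group, 3 libraries) or with one directed against the long non-coding RNA RUNX1-IT1 (the RUNX1-IT1 ASO group, 3 libraries). ES2 is an established human line that the labels describe as epithelial ovarian cancer cells, and an antisense oligonucleotide is a short strand that pairs with a chosen RNA, often leading to its degradation. Members were the rows bearing those 3 symbols, all of which were found, among 771 entries with a gene symbol and 1113 entries in all. Both groups were grown alike in serum-containing medium, no time after treatment or dose is given, and the line is the only cell source, so the series describes 1 line. The replicate numbers 1 to 3 are not said to be separate cultures, so p-values measure the spread between these libraries, which may be technical.

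Values are in CPM, read counts scaled by the size of the library, and per-library values are always given in the order of replicates 1, 2 and 3. The listed entries took up 1.02 to 1.11% of that scale under the control ASO and 0.363 to 0.389% under the RUNX1-IT1 ASO. Evenly spaced low values put the depth at 17100000 to 21200000 reads for each of the 6 libraries. Named entries with a mean above 0 in both groups differed by at least 1.99-fold between the group means, so the tables appear to hold genes already picked for a difference between these same libraries, and a low p for a single gene is no independent evidence. RUNX1-IT1 itself is not among the entries used here, so the labels could not be checked against the target.

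PAX8 is a paired-box transcription factor that patterns the thyroid, the kidney and the Müllerian duct, from which the oviduct and uterus arise, and pathologists use it to recognise many epithelial ovarian carcinomas. PAX8-AS1 is a non-coding RNA gene read from the opposite strand of the same locus. ESR1 encodes estrogen receptor alpha, a nuclear receptor that on binding estradiol attaches to DNA and switches target genes on or off.

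All 3 genes were lower under the RUNX1-IT1 ASO in every library, and by unequal amounts. PAX8-AS1 fell 7.40-fold, ESR1 2.93-fold and PAX8 2.40-fold between the group means. In limma at an adjusted p under 0.05, 3 of 3 were called lower, where 97.5% of the 489 tested genes were, and 3 of 3 had no overlap between the groups, where 97.1% of tested genes had none. These shares are those of the tables as a whole, so the direction of the 3 genes says nothing particular about them. What differed among them was the size, which left the locus on chromosome 2 with about 1.40 PAX8-AS1 reads per PAX8 read in place of 4.20. In bulk RNA, fewer cells expressing a gene and less RNA per cell cannot be told apart.

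PAX8 (ENSG00000125618.16) lies on the minus strand of chromosome 2 from 113215997 to 113278950 in GENCODE release 29 on GRCh38, the build named in the submitters' processing notes. It measured 7.97, 6.95 and 6.55 CPM with the control ASO and 3.48, 2.31 and 3.16 CPM with the RUNX1-IT1 ASO. The groups did not overlap, and the lowest control library stood above the highest knockdown library. The means were 7.16 ± 0.733 and 2.98 ± 0.602 CPM (SD, n = 3 each), a fall of 58.3%. On the log2(CPM + 1) scale PAX8 fell by 1.04 ± 0.14 (SE, limma, adjusted p = 7.24e-06). This was close to the median of all 489 tested genes, -1.11, and 58.1% of them fell further on that scale. By fold PAX8 ranked 348th of 489, below the median of 2.97-fold. After the libraries were rescaled to equal totals over the listed entries, which moves the median of the tested genes by 1.05, PAX8 stood at 0.19 and was not called (limma, adjusted p = 0.367). Set against the other listed genes PAX8 was thus not called in either direction.

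PAX8-AS1 (ENSG00000189223.14), on the plus strand from 113211522 to 113276581, moved most. It measured 30.7, 29.4 and 29.5 CPM with the control ASO and 4.28, 4.14 and 3.69 CPM with the RUNX1-IT1 ASO. The 6 values formed a high and a low cluster with little spread inside either. That spread was smaller than counting reads would give on average. It was 2.39% against about 4.14% with the control ASO and 7.60% against about 11.7% with the RUNX1-IT1 ASO. The means were 29.9 ± 0.714 and 4.04 ± 0.307 CPM (SD, n = 3 each), a fall of 86.5%. On the log2(CPM + 1) scale it fell by 2.62 ± 0.10 (SE, limma, adjusted p = 1.2e-10), which was the 9th largest of 489 on that scale and the 37th largest by fold. After rescaling to equal totals PAX8-AS1 remained lower, at -1.28 (limma, adjusted p = 6.64e-06), where 24.1% of tested genes were called lower.

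**Figure D1:**
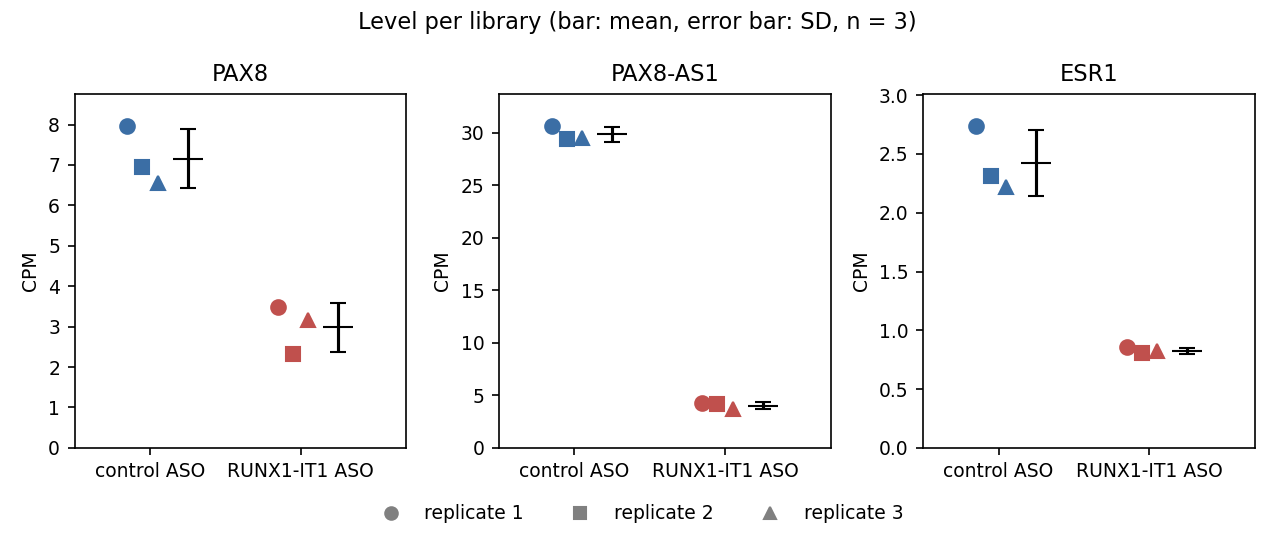
Level in CPM (vertical axes, each from 0) of PAX8, PAX8-AS1 and ESR1 in the 3 control ASO and 3 RUNX1-IT1 ASO libraries. Symbols mark the replicate number, the horizontal bar the group mean and the error bar the SD. No knockdown library reaches a control library in any panel, and the gap is widest for PAX8-AS1, 29.9 against 4.04 CPM.

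The 2 genes of the PAX8 locus share most of their length. Their spans overlap over 60.6 kb, which is 96.2% of PAX8 and 93.1% of PAX8-AS1, while 685 bases are exonic in both, 9.26% of the combined exons of PAX8 and 3.97% of those of PAX8-AS1. RefSeq places one PAX8-AS1 start at position 113235527, 43.4 kb into PAX8 and inside a PAX8 coding exon, and another at 113236269, 42.7 kb into PAX8. Whether the authors' counting used strand is not given in the sources used here. Without strand, reads from bases exonic in both genes, or from unspliced RNA of either, cannot be told apart.

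**Figure D2:**
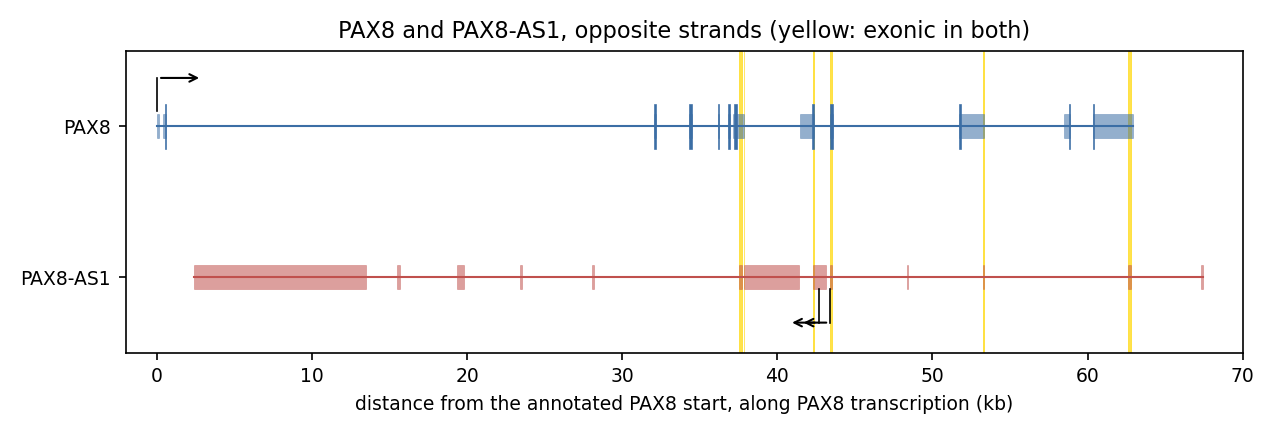
Map of the PAX8 locus in GENCODE release 29, with the horizontal axis in kb from the annotated PAX8 start along PAX8 transcription. Tall blocks are PAX8 coding bases, low blocks all exons combined, yellow bands the 685 bases exonic in both genes, and arrows the RefSeq starts with their direction. Both PAX8-AS1 starts sit near 43 kb, beyond the middle of PAX8, and point back toward the PAX8 start.

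The 250 bases before each RefSeq start of the chromosome 2 genes are shown to let the 2 promoters be compared, since the genes share a locus and fell by different amounts. They are RefSeq sequences on GRCh38.p14, written 5′ to 3′ on the strand of the gene. Capitals mark a GC box (GGGCGG) in the first PAX8-AS1 window and, in the second, the 14-base unit GGAGGCGCGACCCC, which occurs 5 times there; a search for it was added after the sequence was seen.
PAX8 (chr2:113278922-113279171, minus strand): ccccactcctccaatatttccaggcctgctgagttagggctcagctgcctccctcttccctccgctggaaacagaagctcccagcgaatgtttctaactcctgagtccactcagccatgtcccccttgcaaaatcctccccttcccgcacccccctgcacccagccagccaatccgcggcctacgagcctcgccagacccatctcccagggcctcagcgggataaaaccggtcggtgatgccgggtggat
PAX8-AS1, first start (chr2:113235277-113235526, plus strand): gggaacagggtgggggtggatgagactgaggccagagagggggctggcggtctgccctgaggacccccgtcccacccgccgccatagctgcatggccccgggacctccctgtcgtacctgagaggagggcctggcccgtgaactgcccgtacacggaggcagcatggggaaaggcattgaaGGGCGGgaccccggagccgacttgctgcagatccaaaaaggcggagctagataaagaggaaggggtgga
PAX8-AS1, second start (chr2:113236019-113236268, plus strand): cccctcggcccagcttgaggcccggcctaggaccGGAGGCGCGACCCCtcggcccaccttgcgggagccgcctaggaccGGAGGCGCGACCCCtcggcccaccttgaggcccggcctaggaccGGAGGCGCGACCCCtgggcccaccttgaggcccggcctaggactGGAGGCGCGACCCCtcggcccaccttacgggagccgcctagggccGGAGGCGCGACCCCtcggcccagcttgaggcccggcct
The windows differ in base composition. The share of G and C was 61.6% before the PAX8 start, 66.0% before the first PAX8-AS1 start and 77.2% before the second. The second window held 27 CG pairs, against 11 for PAX8 and 13 for the first PAX8-AS1 start. Neither gene's windows matched, on either strand, a RUNX motif (TGTGGT), an AP-1 motif (TGANTCA), an estrogen response half-site (AGGTCA), the full estrogen response element (searched as an inverted pair of half-sites) or a TATA box (TATAAA). Of 34943 RefSeq promoter windows of this length, 10.99% matched the RUNX motif, 6.59% the AP-1 motif, 12.1% the half-site, 0.0401% the full element, 42.5% the GC box and 10.8% the TATA box. The half-site and the full element overlap in their letters.

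The ratio of PAX8-AS1 to PAX8 within a library does not depend on how that library was scaled. It was 3.85, 4.23 and 4.50 with the control ASO and 1.23, 1.79 and 1.17 with the RUNX1-IT1 ASO. All control ratios lay above all knockdown ratios, and the highest knockdown ratio, in replicate 2, came from the library with the lowest PAX8. The mean ratio was 4.20 ± 0.329 against 1.40 ± 0.343 (SD, n = 3 each). On the log2 scale it fell by 1.61 ± 0.21 (SE from the spread between libraries), or 3.06-fold. An exact two-sided permutation test gave p = 0.1, the smallest that 3 libraries against 3 allow, and p = 0.15 after Benjamini-Hochberg adjustment over the 3 ratios computed, so this design cannot pass a threshold of 0.05.

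**Figure D3:**
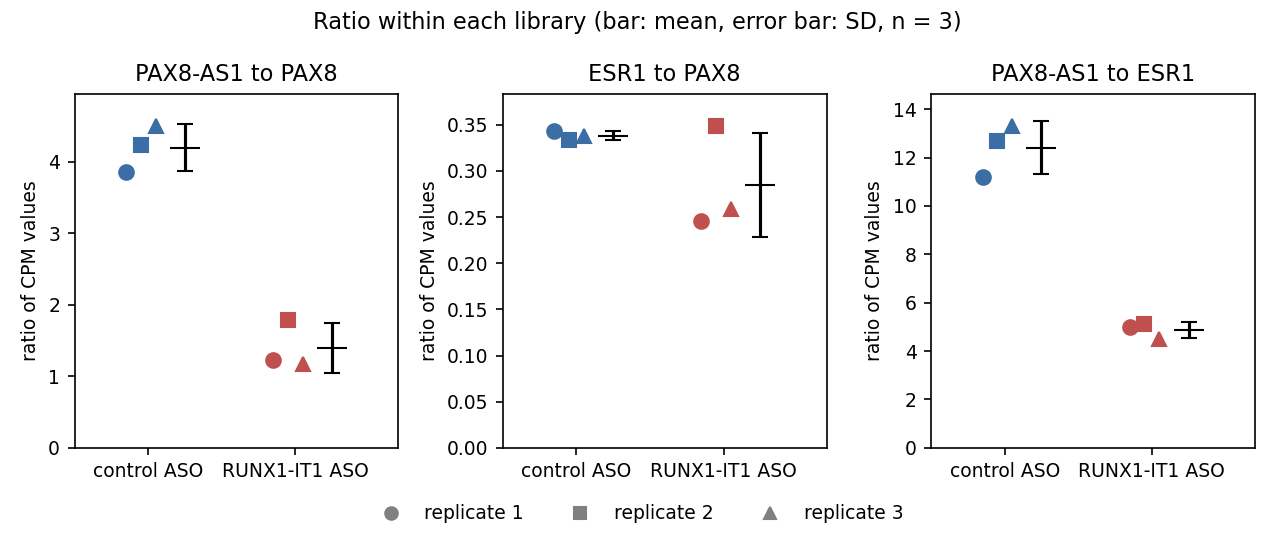
Ratio of CPM values within each library (vertical axes from 0) for the 3 pairs of genes, with symbols for the replicate number, the group mean as a bar and the SD as error bar. The ratio of PAX8-AS1 to PAX8 drops from 4.20 to 1.40 and that of PAX8-AS1 to ESR1 from 12.4 to 4.88 without overlap, while the groups overlap for ESR1 to PAX8.

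Per kilobase of transcript the order of the 3 genes depended on the length used. Divided by the longest transcript matched to RefSeq (4.08 kb for PAX8, 2.69 kb for PAX8-AS1 and 6.47 kb for ESR1), control levels per kb were 11.1 ± 0.266 CPM for PAX8-AS1, 1.75 ± 0.180 for PAX8 and 0.375 ± 0.0431 for ESR1 (SD, n = 3). Under the RUNX1-IT1 ASO the levels per kb were 1.502 ± 0.114, 0.731 ± 0.147 and 0.128 ± 0.00393 CPM, in the same order, and no 2 genes overlapped in either group. With all annotated exons combined as the length, 17.3 kb for PAX8-AS1 and 7.40 kb for PAX8, PAX8-AS1 stood above PAX8 in control libraries, at 1.73 ± 0.0413 against 0.967 ± 0.0991 CPM per kb, but below it under the RUNX1-IT1 ASO, at 0.234 ± 0.0178 against 0.403 ± 0.0814 CPM per kb (SD, n = 3). Which of the 2 genes was more abundant after knockdown is thus not settled by these tables, whereas the fall of their ratio does not involve length.

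One other antisense entry had its partner listed, PSG8-AS1 with PSG8, a pregnancy-specific glycoprotein gene from a family of near-identical copies whose reads are uncertain. Among 51 entries named as antisense, these were the 2 with a listed partner. The ratio of PSG8-AS1 to PSG8 was 2.09, 2.36 and 2.56 with the control ASO and 5.997, 29.9 and 4.60 with the RUNX1-IT1 ASO. It moved upward, opposite to the PAX8 pair, on PSG8 values of 0.321, 0.054 and 0.293 CPM after knockdown, of which 0.054 corresponds to a single read. PSG8-AS1 fell 2.11-fold, from 3.44 ± 0.427 to 1.63 ± 0.289 CPM (SD, n = 3). Of the 31 antisense entries tested, all 31 were called lower (limma), where 97.5% of all tested genes were, with a median log2 change of -1.02 beside -1.11. Some of them, ZEB2-AS1 and CFLAR-AS1 included, had a knockdown mean below the filter of 1 CPM. These entered the test only through their control libraries, so this count is no independent evidence. PAX8-AS1 had the highest control level of these 31 and the largest fall on the log2(CPM + 1) scale. By fold it came after ZEB2-AS1 (20.3-fold) and CFLAR-AS1 (9.77-fold). Those 2 folds rest on low knockdown means, 0.109 ± 0.0505 and 0.327 ± 0.188 CPM (SD, n = 3), against 4.04 CPM for PAX8-AS1, and are less certain.

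ESR1 (ENSG00000091831.23) spans 473 kb of the plus strand of chromosome 6, from 151656691 to 152129619. It measured 2.74, 2.32 and 2.215 CPM with the control ASO and 0.856, 0.807 and 0.820 CPM with the RUNX1-IT1 ASO. Every control value was above 2 CPM and every knockdown value below 1 CPM, the latter resting on 14 to 16 reads per library. The means were 2.42 ± 0.279 and 0.828 ± 0.0254 CPM (SD, n = 3 each), a fall of 65.9%. On the log2(CPM + 1) scale ESR1 fell by 0.90 ± 0.12 (SE, limma, adjusted p = 1.15e-05). ESR1 passed the filter of a mean of 1 CPM only through its control libraries, and this p is no independent evidence. That scale compresses low genes, and by fold ESR1 fell more than PAX8, so the order of these 2 turns with the scale. By fold ESR1 ranked 254th of 489, next to a median of 2.97-fold, whereas on the log2(CPM + 1) scale it ranked 354th and 72.2% of tested genes fell further. After rescaling to equal totals its change was -0.03 (limma, adjusted p = 0.878).

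The ratio of ESR1 to PAX8 was 0.344, 0.333 and 0.338 with the control ASO and 0.246, 0.349 and 0.259 with the RUNX1-IT1 ASO. Control libraries were nearly alike, and the knockdown libraries lay on both sides of them, with replicate 2 above all 3. The control ratios lay closer together than counting reads would give on average (about 14.5% for ESR1 and 8.46% for PAX8). Their likeness is thus no measure of how steady the ratio is. The log2 ratio changed by -0.27 ± 0.16 (SE), and an exact two-sided permutation test over 3 libraries a group gave p = 0.4 (0.4 after adjustment over the 3 ratios), so a difference in fall between ESR1 and PAX8 was not resolved. PAX8-AS1 against ESR1 fell by 1.35 ± 0.09 on the log2 scale (SE from the spread between libraries). Its mean ratio went from 12.4 ± 1.09 to 4.88 ± 0.332 (SD, n = 3, exact permutation p = 0.1, adjusted 0.15). The SEs of both ratios with ESR1 may be too small. Between knockdown libraries ESR1 varied by 3.07%, while counting its reads would by itself give about 25.8%.

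RefSeq lists 6 starts for ESR1, and the windows before starts 4 and 5, counted along the chromosome, are shown because the window of start 4 holds the 1 RUNX motif (TGTGGT) found among the windows of the 3 genes and start 5 follows it closely. Capitals mark that motif and, in both windows, a GC box read on the opposite strand (CCGCCC).
ESR1, start 4 (chr6:151806946-151807195, plus strand): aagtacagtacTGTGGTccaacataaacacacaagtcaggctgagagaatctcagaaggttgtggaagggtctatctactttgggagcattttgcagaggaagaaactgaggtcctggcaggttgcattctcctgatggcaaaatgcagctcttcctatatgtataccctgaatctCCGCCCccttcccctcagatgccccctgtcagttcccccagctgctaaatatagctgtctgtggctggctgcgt
ESR1, start 5 (chr6:151807432-151807681, plus strand): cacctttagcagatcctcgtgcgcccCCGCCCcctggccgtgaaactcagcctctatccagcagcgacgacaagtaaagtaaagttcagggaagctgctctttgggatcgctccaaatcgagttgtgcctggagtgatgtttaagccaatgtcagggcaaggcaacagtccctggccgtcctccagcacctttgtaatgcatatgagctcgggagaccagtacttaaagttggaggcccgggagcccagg
The RUNX motif begins 239 bases before start 4, at position 151807196, a match that 10.99% of all promoter windows have. That share is per window, and with 6 windows of ESR1 searched a match in any of them is less rare. No window of ESR1 matched the AP-1 motif, the estrogen response half-site, the full element or the TATA box. A match of letters is a description and shows no binding.

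Genes that act with estrogen receptor alpha, or are known to be induced by estrogen, were few in the tables. Of 41 estrogen-induced genes 7 were listed, and all 7 fell (limma), where 97.5% of all tested genes did. Their median change was -1.69 beside -1.11 on the log2(CPM + 1) scale, which compresses low genes. By fold the middle of the 7, KLF10, fell 3.26-fold, beside a median of 2.97-fold for all tested genes. The 7 are best known as growth factor and stress response genes rather than as estrogen targets alone. AREG, an EGF receptor ligand, fell from 7.59 ± 1.34 to 2.49 ± 0.672 CPM. EGR3, a zinc finger factor of the early growth response, fell from 8.78 ± 0.308 to 1.71 ± 0.302 CPM, and its relative EGR1 from 358 ± 14.3 to 115 ± 11.2 CPM. FOS, an AP-1 subunit, fell 5.75-fold, SNAI1, a repressor of E-cadherin, 8.68-fold, KLF10 3.26-fold and PMAIP1, a pro-apoptotic BCL2 family gene, 2.43-fold. With libraries rescaled to equal totals, 4 of them were lower, PMAIP1 was higher and 2 passed in neither direction, with a median of -0.20. Of all tested genes 24.1% were then called lower and 8.79% higher, with a median of -0.06. GREB1, PGR, TFF1 and the other 31 estrogen-induced genes of the list are not in the tables used here.

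Of 48 nuclear receptor genes 4 were listed and all 4 fell (limma), where 97.5% of tested genes did, ESR1 by the least on the log2(CPM + 1) scale, although differences between receptors were not tested. NR1D1, the heme-binding clock repressor, fell from 117 ± 3.78 to 22.9 ± 2.01 CPM. The orphan receptors NR4A2 and NR4A3 fell from 10.7 ± 0.902 to 2.4997 ± 0.627 CPM and from 9.69 ± 0.450 to 1.24 ± 0.294 CPM (SD, n = 3). With libraries rescaled to equal totals, NR1D1, NR4A2 and NR4A3 still passed as lower, at -0.84, -0.53 and -1.18, while ESR1 was not, beside 24.1% of tested genes called lower. Among 35 cofactors of the receptor 2 were listed and both fell, again beside 97.5% of tested genes, CITED2 2.23-fold from 168 ± 9.03 CPM and PPARGC1A, a metabolic coactivator, 3.03-fold from 9.40 ± 0.435 CPM. After rescaling CITED2 turned to 0.34 and was called higher, where 8.79% of tested genes were. PPARGC1A then stood at -0.10 and was not called.

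Of 36 markers of ovarian tumours and Müllerian epithelium, PAX8, ESR1 and OVGP1 were listed and all 3 fell, as 97.5% of tested genes did. OVGP1, the oviduct-specific glycoprotein, was 2.29, 1.04 and 1.89 CPM with the control ASO and 0.107, 0.323 and 0.351 CPM with the RUNX1-IT1 ASO, a change of -1.10 ± 0.17 on the log2 scale (limma, adjusted p = 3.32e-05). The groups did not overlap, as for 97.1% of tested genes, though the control values ranged widely. After rescaling OVGP1 was called lower, at -0.54 (limma, adjusted p = 0.0419), where 24.1% of tested genes were. All its knockdown values lay below the filter of 1 CPM. It thus entered the test only through its control libraries, and these calls are no independent evidence. WT1, SOX17, MUC16, EPCAM and KRT7 are not among the entries used here, so the labelled cell type could not be checked against them. PAX8 was the 1 listed member of the 9 PAX genes. Of 26 partners and targets of PAX8 the 1 listed was CP, the copper protein ceruloplasmin, at 1.58 ± 0.235 and 0.256 ± 0.108 CPM, with a mean too low for the test.

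Of 20 markers of immune cells 2 were listed and 1, CD163, was tested. It was called lower, as 97.5% of tested genes were. The 2 markers' summed level was 11.1 to 11.9 CPM in control and 1.604 to 1.88 CPM in knockdown libraries. CD163, a scavenger receptor of macrophages, fell from 9.71 ± 0.464 to 1.59 ± 0.215 CPM (SD, n = 3), and ITGAM, an integrin of myeloid cells, was at 1.72 ± 0.113 and 0.127 ± 0.0792 CPM. PTPRC, the pan-leukocyte marker, is not among the entries used here. Their part in the change of PAX8, PAX8-AS1 and ESR1 was not tested. None of 16 fibroblast and mesothelial or 12 endothelial markers was listed.

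**Figure D4:**
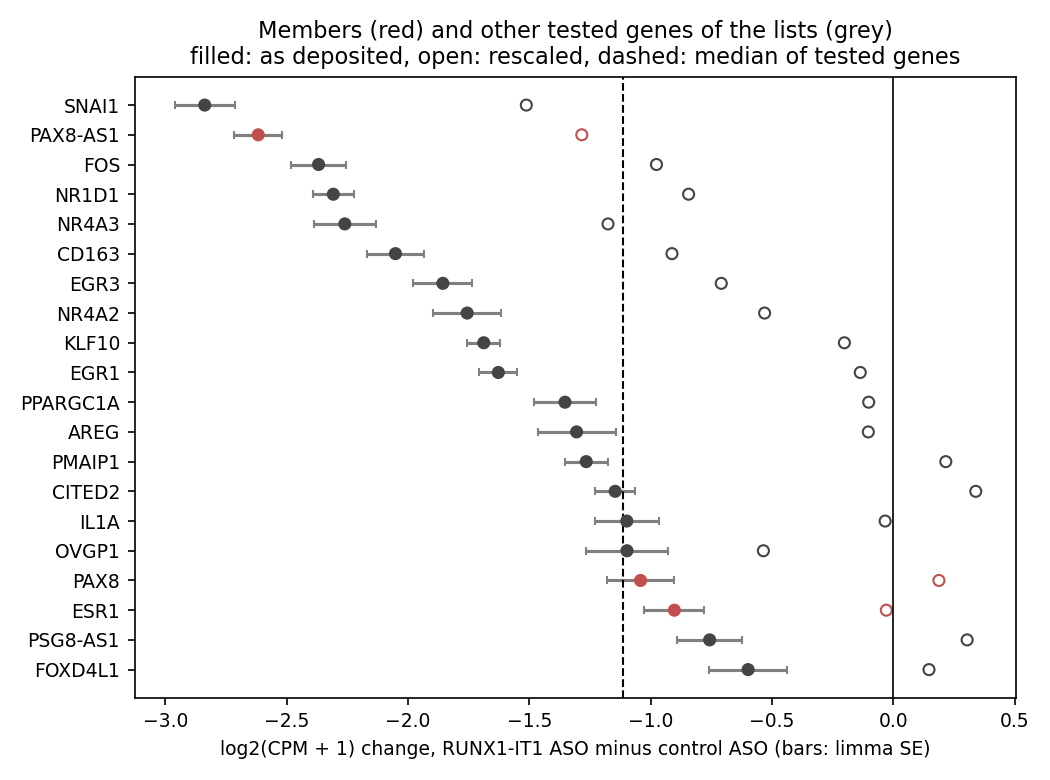
Change on the log2(CPM + 1) scale (horizontal axis, RUNX1-IT1 ASO minus control ASO), with the 3 genes in red. The other tested genes of the lists, the neighbours and PSG8-AS1 are in grey. PSG8 is absent, with a mean too low for the test. Filled points with limma SE are as deposited, open points after rescaling to equal listed totals, and the dashed line is the median of all tested genes, -1.11. SNAI1 and PAX8-AS1 lie at the far left, and PAX8 and ESR1 to the right of the dashed line.

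Few chromosomal neighbours were listed. Within 1 Mb of PAX8, 3 of 67 other annotated genes were listed, PAX8-AS1 included. IL1A, the cytokine interleukin 1 alpha, 431 kb away, fell from 4.33 ± 0.387 to 1.49 ± 0.275 CPM. FOXD4L1, a forkhead gene with near-identical copies whose reads are uncertain, 220 kb away, fell from 1.52 ± 0.461 to 0.660 ± 0.274 CPM. None of the 39 other genes within 1 Mb of ESR1 was listed. The other genes of both windows are not in the tables used here, and their levels are not known from them.

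Profiles were compared over the 6 libraries by the root mean square distance between mean-centred log2(CPM + 1) values. Since nearly all genes fell, such likeness mainly reflects a similar size of fall. Nearest to PAX8 were IL7R, the interleukin 7 receptor chain (distance 0.0796), MICALCL (0.0816) and the scaffold gene MAGI2 (0.0851). Nearest to PAX8-AS1 were FOSB, an AP-1 subunit (0.0608), ID2, an inhibitor of helix-loop-helix factors (0.138), and the lipoxygenase gene ALOXE3 (0.140). ESR1 was closest to the zinc finger gene ZNF610 (0.0428) and to the non-coding RNAs LINC00346 (0.0582) and LUCAT1 (0.0584). Seen from PAX8, ESR1 came 27th at a distance of 0.140 and PAX8-AS1 466th at 0.803, so among the 3 genes the overlapping pair was less alike than PAX8 and the receptor on another chromosome.

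**Figure D5:**
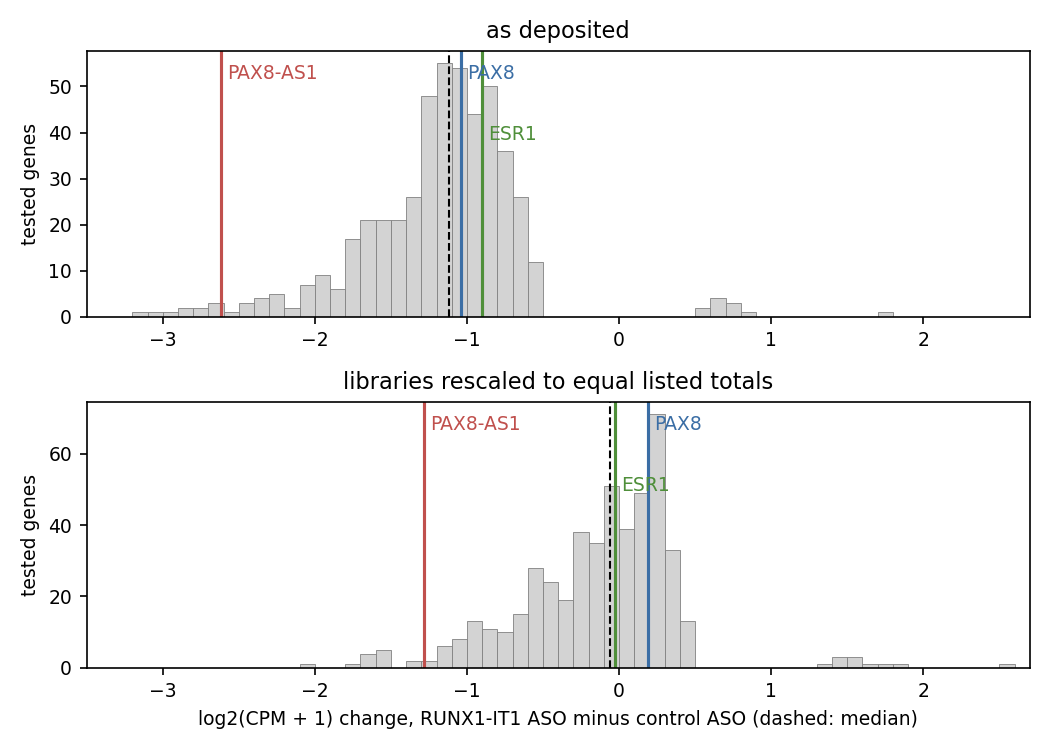
Number of tested genes (vertical axis) by log2(CPM + 1) change (horizontal axis) as deposited and after rescaling to equal listed totals, with the 3 genes as coloured lines and the median dashed. As deposited PAX8, at -1.04, lies near the median of -1.11 and ESR1, at -0.90, near the 75th percentile of -0.88, and PAX8-AS1 is in the left tail of both panels, at -2.62 and -1.28.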

How the data were processed

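RNA of ES2 cells was sequenced in 6 libraries, 3 per group, grouped by their titles. The authors deposited CPM values, a unit recognised from the numbers alone. GRCh38 was the build, and FastQC 0.11.9 with fastp 0.22.0 handled the reads, per the submitters' processing notes. The aligner, counter, annotation, strand setting and gene filter are not given in the sources used here. Of the 1113 entries, 342 (30.7%) carry no symbol and were kept out of the main fit.

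In R 4.3.3, limma 3.58.1 with a mean-variance trend was fitted to log2(CPM + 1) of 489 named genes averaging 1 CPM or more, and 282 were not tested. Group was the only term, and p-values were Benjamini-Hochberg adjusted over all 489. Ratios were tested by exact permutation in scipy 1.17.1. No count test was run, since the smallest value above 0 was 1 read for the RUNX1-IT1 ASO but 2 to 5 reads for the control ASO, which leaves the step, and so the depth, less certain there. Replicates differed by more than sampling noise (chi-square per degree of freedom 1.97 to 2.79).

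The members and gene lists were chosen with earlier results of these data known. Genes named are the members, the 3 nearest profiles of each, all list genes in the tables, neighbours within 1 Mb and the pairs of sense and antisense entries; WT1, SOX17 and other genes said not to be listed, and the antisense RNAs ZEB2-AS1 and CFLAR-AS1, were named after the tables were seen. Lists are described by counts and medians, with no set test. Alternatives were another pseudocount, filters, rescaling, all entries, a replicate block and leaving out each library.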

Additional observations from a re-analysis of the deposited data

How the results depend on the processing

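The fall of PAX8-AS1 kept its call under all alternatives run, between -2.86 (pseudocount 0.1) and -1.28 (rescaled to equal listed totals). Rescaling, which centres genes that nearly all fell, moved PAX8 to 0.19 and ESR1 to -0.029, both no longer called, and the counts of genes called to 118 lower and 43 higher. With no filter on low values 750 were lower and 19 higher, with all entries 20 were higher, and with genes averaging 5 CPM or more, where ESR1 is not tested, 165 were lower and 0 higher (limma; 0 also at an unadjusted p under 0.05), since other numbers of genes were tested. Leaving out 1 library at a time gave -1.13 to -0.91 for PAX8, -2.65 to -2.57 for PAX8-AS1 and -0.95 to -0.84 for ESR1. From 436 of 449 tested genes to 513 of 524 were then lower, and 7 to 12 higher, as the number passing the filter also moved. The change of the log2 ratio of PAX8-AS1 to PAX8, RUNX1-IT1 ASO minus control ASO, then ranged from -1.80 to -1.496. The same change for ESR1 to PAX8 ranged from -0.42 to -0.17, and a pseudocount of 1 turned it to 0.14. With lengths of all exons combined, a choice made after seeing the data, as was the fit without a trend, the log2 ratio of PAX8-AS1 to PAX8 per kb under the RUNX1-IT1 ASO turned from 1.06 to -0.77. Same-numbered libraries did not deviate together (correlations of -0.24, -0.10 and -0.02 across genes, and 0 of 6 libraries correlated best with its own number), so the numbers were not taken as pairs. With the replicate block PAX8 stood at -1.04 (limma, adjusted p = 1.09e-05), PAX8-AS1 at -2.62 and ESR1 at -0.90, with 478 genes lower and 10 higher, and no call of the 3 genes changed.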

Other observations

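The steps in the CPM values put ESR1 at 14 to 16 reads in the RUNX1-IT1 ASO libraries and at 40 to 55 in the control ASO libraries. The coefficient of variation between the 3 knockdown libraries was 3.07%, while counting that many reads would by itself give about 25.8%, so the SD of ESR1 in that group is smaller than counting error alone would give on average. PAX8 stood at 43 to 65 reads after knockdown, with 20.2% observed and 13.6% from counting. PAX8-AS1 stood at 63 to 80 reads, with 7.60% observed and 11.7% from counting. In control ASO replicate 1 PAX8, PAX8-AS1 and ESR1 were all at their highest, though the listed entries together were highest in replicate 3, at 11070 CPM against 10803 in replicate 1.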
